A study of Mus musculus with 16 samples.

Results

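Red crypt cells of mouse duodenum that carried an oncogenic BRAF transgene and were low for a green stem cell reporter (BRAF R, 3 arrays) were compared with red crypt cells that carried a luciferase transgene and were high for that reporter (luciferase RG, 2 arrays). These 5 arrays were chosen by their titles from the 16 of the series. Each array measured RNA of 1 sorted fraction of 1 mouse. BRAF R came from 3 mice with a doxycycline-inducible TdTomato-BRAF(V600K) fusion, sorted as transgene positive and Lgr5-EGFP-negative. Luciferase RG came from 2 mice with the TdTomato-luciferase control, sorted as transgene positive and Lgr5-EGFP-positive. Both sets of mice were on a B6/129S6 mixed background and 8 to 12 weeks old, carried the green Lgr5 reporter, and drank doxycycline at 4 mg/ml in 1% sucrose for 24 h. The promoter that drives the transgene and the number of founder lines are not given in the sources used here. The other groups were G (green high, red low) and RG (both high) of the BRAF line, NEG (both low) of the BRAF line, with 3 arrays each, and G of the luciferase line, with 2 arrays. Transgene, mouse line and green gate all differ between BRAF R and luciferase RG and cannot be told apart in the direct comparison.

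BRAF is a kinase that activates MEK, which activates ERK. The BRAF(V600K) form replaces a valine of its activation segment and is active without an upstream RAS signal. Active ERK enters the nucleus and raises transcription of early factors, of phosphatases and Sprouty proteins that limit ERK again, and of ligands for the EGF receptor. In the intestinal crypt, stem cells at the base express Lgr5 and divide under Wnt signals, and their offspring become absorptive cells or, where Notch is inactive and the factor Atoh1 is on, secretory cells: goblet, Paneth and enteroendocrine cells. After injury, crypt cells lower the stem cell genes for a time and express a repair programme with annexins, S100 proteins and Sprr1a.

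The green gate was not mirrored by Lgr5 transcripts in these 2 groups. Lgr5 had a log2 intensity of 7.14 and 7.11 on the luciferase RG arrays and of 7.37, 6.91 and 6.57 on the BRAF R arrays. The ranges overlapped and all 5 values were low, whereas the group means were 8.81 in luciferase G and 8.52 in BRAF G. The log2 difference of BRAF R from luciferase RG was -0.17 ± 0.31 (SE; adjusted p 0.873, limma). Of the 22 tested members of a list of 28 stem cell genes with probes, 0 passed the test, 6 lay below both control arrays (27.3%, against 15.5% of all genes) and 0 above. In the fit of 16 arrays 2 of the 22 fell, beside 544 of all 9575 genes. The list's mean log2 intensity was 8.06 in luciferase RG and 7.93 in BRAF R, against 8.89 in luciferase G and 8.92 in BRAF G. Olfm4, a secreted glycoprotein of crypt base cells, was 11.46 and 11.29 in luciferase RG and 10.91, 11.01 and 10.48 in BRAF R, a difference of -0.58 ± 0.28 that did not pass (adjusted p 0.404). Luciferase RG, labelled Lgr5-EGFP-positive like both G groups, thus had a lower Lgr5 mean than either, and the green label of the direct comparison is not carried by Lgr5 transcripts here. This was not particular to luciferase RG. BRAF RG, also green high, had a Lgr5 mean of 7.47, below BRAF G and below the green-low BRAF NEG (7.82). Epithelial transcripts were present on all 5 arrays: Cdh1, the adhesion protein E-cadherin, ran from 13.37 to 14.43 and Vil1, a brush border protein, from 10.25 to 10.91. The table held 0 probes for Braf, so neither the transgene's transcript nor the endogenous one was checked.

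**Figure D1:**
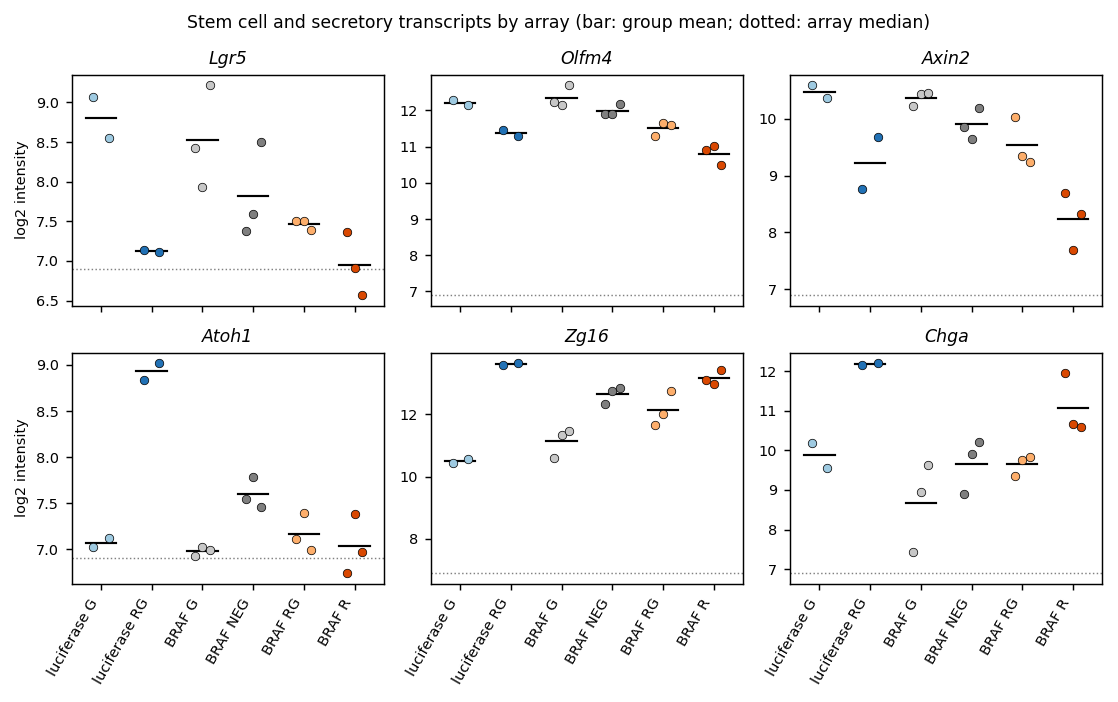
Log2 intensity of stem cell genes (Lgr5, Olfm4, Axin2) and secretory genes (Atoh1, Zg16, Chga) on all 16 arrays, with 1 point per array, a bar at the group mean and a dotted line at the array median. Lgr5 is near the array median in luciferase RG and in BRAF R, and Atoh1 is highest on the 2 luciferase RG arrays.

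All arrays shared 1 distribution of intensities, with medians from 118.9 to 119.9 on the linear scale. Pearson's r of log2 intensity was taken across the 13305 named probes above the array median on at least 2 of the 5 arrays. Values of these probes are not independent of each other. The r was 0.907 for the luciferase RG pair and from 0.888 to 0.939 among the BRAF R arrays. Between the groups it ran from 0.837 to 0.897. The median residual SD was 0.326 for these 5 arrays and 0.256 over all 16, so a fit of the 5 arrays alone was used. With 3 arrays against 2, no exact permutation test of a single gene can give a two-sided p below 0.1, and p-values rest on limma's pooling of the spread across genes.

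Of the 9575 genes tested, 61 (0.637%) differed at an adjusted p under 0.05, 50 higher in BRAF R (0.522%) and 11 lower (0.115%). Their log2 differences were from 1.53 to 5.09 in size, and the median over all genes was -0.03. The BRAF R and luciferase RG arrays did not overlap for any of these 61, but the same held for 31.1% of all genes, 15.6% with BRAF R higher and 15.5% with it lower. The number of calls depended on the arrays. It was 16 without luciferase RG 1, 30 without luciferase RG 2 and 26 without BRAF R 2, and 12 genes were called in all 5 fits that leave out 1 array. When all 16 arrays shared 1 estimate of the spread, 1200 genes were called, and 180 (1.88%) when noisy arrays were also given less weight, 46 of the 61 among them.

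**Figure D2:**
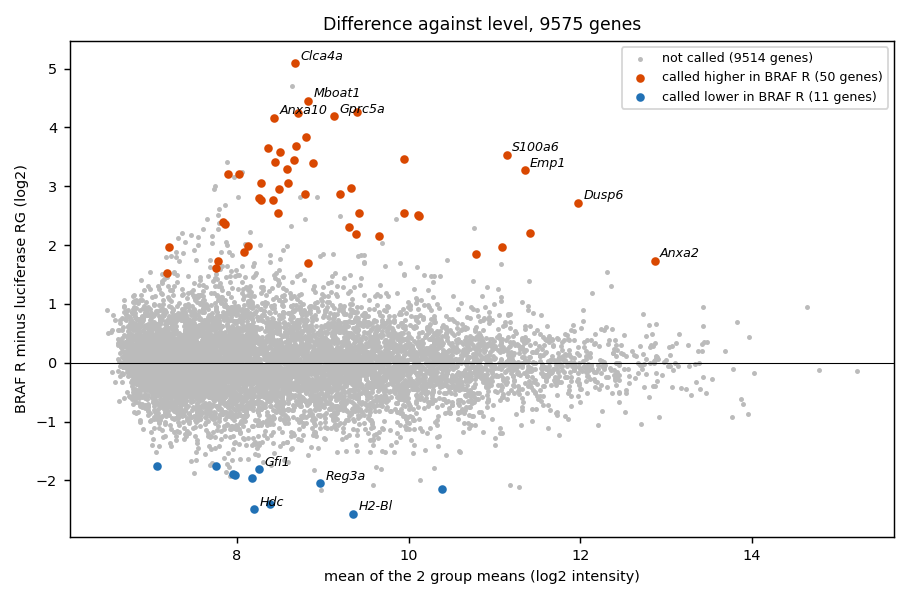
Log2 difference of BRAF R from luciferase RG against the mean of both group means for the 9575 genes tested, with called genes in colour. The 50 higher genes reach a log2 difference of 5.09 (Clca4a) and the 11 lower ones -2.57 (H2-Bl).

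Of 17 tested genes of ERK feedback and ERK output (20 had a probe), 5 rose in BRAF R (against 0.522% of all genes) and 0 fell. The 5 were Dusp6, Ier3, Emp1, Plaur and Il1rn. The median log2 difference of the list was 1.29, against -0.03 over all genes. All 3 BRAF R arrays lay above both luciferase RG arrays for 12 of the 17 (70.6%, against 15.6% of all genes). They lay below both for 0 (against 15.5% of all genes). Because a gene could enter the test through the group in which it was high, these list counts and medians describe the genes that entered and no more.

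Dusp6, the phosphatase that dephosphorylates ERK, had a log2 intensity of 10.56 and 10.66 on the luciferase RG arrays and of 13.37, 13.35 and 13.28 on the BRAF R arrays. The BRAF R arrays were close together and far above both control arrays. The difference was 2.72 ± 0.25, a 6.61-fold higher intensity (adjusted p 0.00448). The mean of Dusp6 was lowest in luciferase G (9.68 ± 0.05, mean ± SD, 2 arrays), followed by luciferase RG, BRAF G (10.92 ± 0.62), BRAF NEG (11.44 ± 0.32) and BRAF RG (12.51 ± 0.67, 3 arrays each), and highest in BRAF R. Neighbours in this order were not tested against each other, and those of luciferase RG and BRAF G lie within 1 SD of the latter.

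Emp1, a membrane protein of the epithelial membrane protein family, was 9.38 and 10.04 in luciferase RG and 12.92, 13.34 and 12.70 in BRAF R. The groups were far apart, by 3.27 ± 0.32 (adjusted p 0.00613). Plaur, the receptor of the protease urokinase, was 6.75 and 7.14 in luciferase RG, above the array median on only 1 of the 2, and 9.64, 10.76 and 10.77 in BRAF R. The lowest BRAF R array was still well above both controls, and the difference was 3.44 ± 0.39 (adjusted p 0.00984, or 0.0611 without luciferase RG 1). Ier3, an early response gene, was 7.18 and 8.50 in luciferase RG and 10.50, 11.15 and 10.79 in BRAF R. Its control arrays were themselves apart, and the difference of 2.97 ± 0.41 (adjusted p 0.0189) was not called without luciferase RG 1, BRAF R 2 or BRAF R 3 (adjusted p up to 0.0785).

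Il1rn, the secreted antagonist of the interleukin 1 receptor, was 6.67 and 6.75 in luciferase RG, below the array median on both, and 9.48, 11.33 and 10.09 in BRAF R. Where all arrays of a group, or their mean, lie under the array median, the gene has only a bound there, so its fold is given against the higher of the median and its own signal. Il1rn was at least 10.6-fold higher in BRAF R (adjusted p 0.0189; 0.0782 without luciferase RG 1). Without luciferase RG 1 the ERK list had 2 called members, and without BRAF R 3 it had 3. Here and below, genes that did not pass and are not on the fixed list of names given with the methods were picked after their values were seen, Spry2 and Etv5 among them. Spry2, a Sprouty inhibitor of receptor signals, had a difference of 1.32 ± 0.26 (adjusted p 0.073), Dusp4, a nuclear phosphatase of MAP kinases, of 1.29 ± 0.29 (adjusted p 0.105) and Spry4 of 1.11 ± 0.29 (adjusted p 0.144). None of these 3 passed, although their groups did not overlap. Fosl1, the AP-1 subunit Fra-1, was 6.31 and 6.19 on the control arrays, below the median, and 7.39, 8.77 and 9.22 in BRAF R, at least 2.95-fold higher, and did not pass (adjusted p 0.102). Etv5, a PEA3 factor downstream of ERK, had a difference of -0.58 ± 0.33 (adjusted p 0.47).

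The promoters of several of these genes hold the letters of an AP-1 site, the element bound by Fos and Jun family dimers. Promoter sequence from RefSeq (GRCm38.p6) was found for 36 of the 50 higher genes, in 43 windows of the 250 bases before a start, and for 9 of the 11 lower genes, in 15 windows. The letters TGANTCA, on either strand, were in 8 of the 43 windows (18.6%), in 0 of the 15, and in 4.9% of the 10044 windows of all tested genes. Each motif was searched by itself, and matches of different motifs can share bases. The 8 genes were Anxa10, Anxa2, Cidec, Emp1, Il1rn, Plaur, S100a11 and Sprr1a. The windows of 4 of them, among those with the largest differences, follow 5′ to 3′ on the gene's strand, with each match in capitals.

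Plaur promoter (chr7:24462233-24462482, plus strand): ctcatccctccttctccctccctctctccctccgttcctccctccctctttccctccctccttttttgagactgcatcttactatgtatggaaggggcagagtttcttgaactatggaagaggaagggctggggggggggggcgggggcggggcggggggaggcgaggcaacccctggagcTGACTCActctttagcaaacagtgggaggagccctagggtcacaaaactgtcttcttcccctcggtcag

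Emp1 promoter (chr6:135362681-135362930, plus strand): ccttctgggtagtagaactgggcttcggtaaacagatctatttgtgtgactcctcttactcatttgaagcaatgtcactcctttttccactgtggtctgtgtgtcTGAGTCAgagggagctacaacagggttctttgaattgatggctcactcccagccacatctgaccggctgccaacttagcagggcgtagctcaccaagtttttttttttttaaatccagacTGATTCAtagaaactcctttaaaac

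Anxa10 promoter (chr8:62123194-62123443, minus strand): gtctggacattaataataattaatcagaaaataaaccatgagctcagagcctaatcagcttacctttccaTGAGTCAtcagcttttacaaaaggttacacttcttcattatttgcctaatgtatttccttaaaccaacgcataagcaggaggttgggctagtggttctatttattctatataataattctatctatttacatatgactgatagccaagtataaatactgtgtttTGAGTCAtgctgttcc

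Sprr1a promoter (chr3:92485882-92486131, minus strand): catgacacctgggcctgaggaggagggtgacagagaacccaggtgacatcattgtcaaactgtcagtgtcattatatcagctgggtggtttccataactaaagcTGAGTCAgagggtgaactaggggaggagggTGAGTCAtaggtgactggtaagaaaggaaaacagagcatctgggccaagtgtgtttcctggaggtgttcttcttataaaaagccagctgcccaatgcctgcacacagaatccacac

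Of 6 other motifs searched on both strands, the TEAD letters GGAATG were in 14% of the windows of higher genes against 10.8% of all, the ETS letters CCGGAAGT in 6.98% against 5.65%, and the CRE letters TGACGTCA in 4.65% against 2.58%. The E-box CAGCTG was in 18.6% against 12.2%, a NF-kappaB motif in 4.65% against 1.39%, and the ATOH1 letters CANCATNTG in 0 windows of higher or lower genes against 2.07% of all. These shares were not tested, a match is not a bound site, and a window without a match says only that the letters are not in it.

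**Figure D3:**
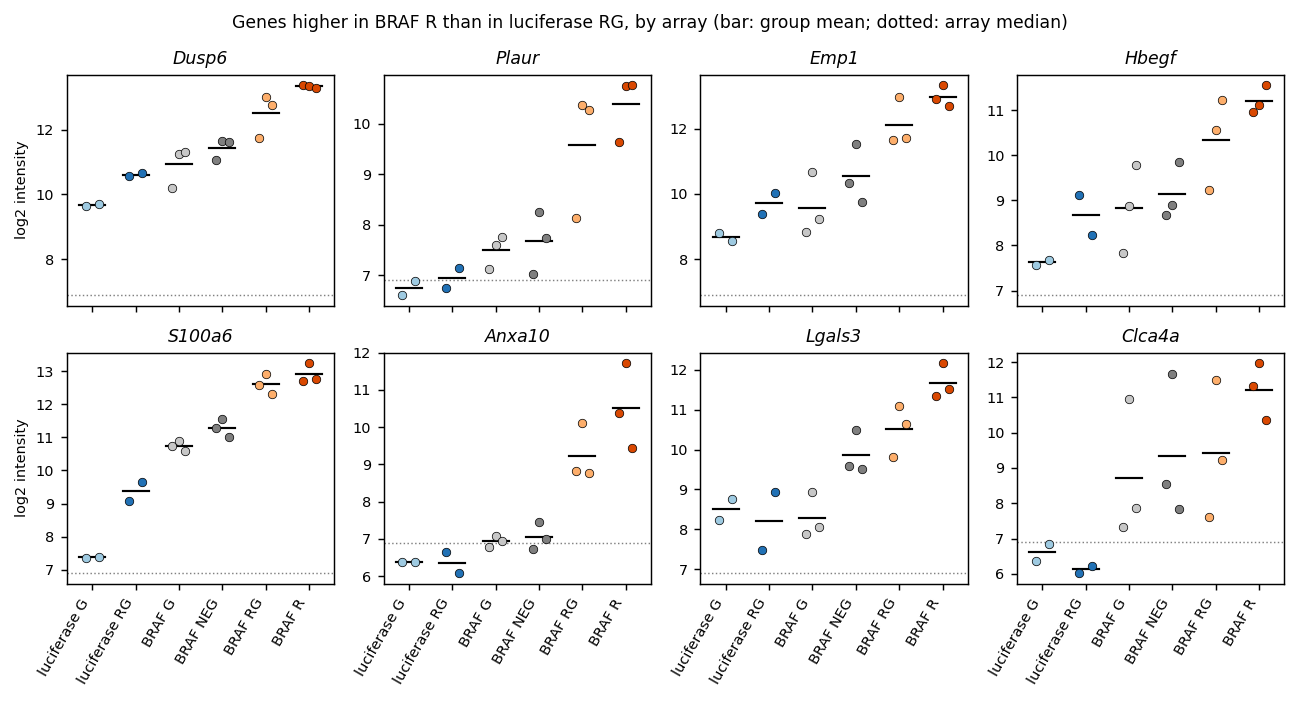
Log2 intensity of Dusp6, Plaur, Emp1, Hbegf, S100a6, Anxa10, Lgals3 and Clca4a on all 16 arrays, with 1 point per array, a bar at the group mean and a dotted line at the array median. The 3 BRAF R arrays lie above both luciferase RG arrays in each panel. S100a6 is also higher in BRAF G than in luciferase G.

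Around the cascade itself, a ligand and an inhibitor of the EGF receptor and 1 p38 kinase rose. Hbegf, a membrane-anchored EGF-type ligand, was 9.11 and 8.23 in luciferase RG and 10.97, 11.12 and 11.56 in BRAF R. All BRAF R arrays were higher, by 2.55 ± 0.35 (adjusted p 0.0189). The call was lost without luciferase RG 2, BRAF R 2 or BRAF R 3, with adjusted p up to 0.0861. Hbegf was the 1 called gene of the 4 tested EGF-family ligands (against 0.522% of all genes called higher). All 4 lay above both control arrays (100%, against 15.6% of all genes), though a gene could enter the test through its BRAF R values alone. Btc (betacellulin), with means of 6.60 and 8.98, was at least 4.23-fold higher (adjusted p 0.105). Ereg (epiregulin, 6.30 and 7.33) was at least 1.35-fold higher and Tgfa (6.77 and 7.12) at least 1.17-fold, and none of these 3 passed.

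Errfi1, the cytoplasmic inhibitor of ErbB receptors also known as Mig6, was 8.88 and 8.84 in luciferase RG and 10.61, 11.70 and 11.78 in BRAF R, a rise of 2.51 ± 0.38 (adjusted p 0.0305; 0.116 without luciferase RG 1). Its 3 BRAF R values were all higher, with BRAF R 1 the lowest. Mapk11, the beta form of the p38 kinase, was 6.52 and 6.56 in luciferase RG, below the array median on both, and 10.95, 10.22 and 9.39 in BRAF R. It went from the dim range to well above it and was at least 9.79-fold higher (adjusted p 0.0104; 0.0611 without luciferase RG 1). The other 5 tested genes of the p38 list did not pass, among them Mapk14, the alpha form (-0.45 ± 0.26), and Mapk13, the delta form (-0.56 ± 0.28). Of 11 tested genes of the RAS, RAF, MEK and ERK cascade 0 passed, with a median of 0.29.

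Of 14 tested immediate-early factors 0 passed, and their median difference was 0.18. Egr1, a zinc finger factor induced within minutes of ERK activation, was 12.94 on both luciferase RG arrays and 13.19, 13.22 and 13.43 in BRAF R. It was bright in both groups, with a difference of 0.34 ± 0.26 (adjusted p 0.627), and its mean in luciferase G was 11.73. Fos was 11.20 and 11.34 against 11.14, 11.17 and 11.54 (0.01 ± 0.27), and Fosb had a difference of -1.53 ± 0.55 (adjusted p 0.252). Genes of heat shock and tissue dissociation had a median of 0.49 over 11 tested, with 0 called. Of these genes, 5 lay above both control arrays (45.5%, against 15.6% of all genes) and 0 below (against 15.5%). Their part in the ERK and repair results was not tested.

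The repair programme held more called genes than any other list. Among 19 tested genes of crypt regeneration and the YAP response (22 had a probe), 9 rose (against 0.522% of all genes) and 0 fell, and the median log2 difference was 2.21. All BRAF R arrays lay above both control arrays for 16 of them (84.2%, against 15.6% of all genes), though a gene could enter the test through its BRAF R values alone. The called members were Gprc5a, Sprr1a, Anxa10, S100a6, Lgals3, S100a14, Anxa5, S100a11 and Anxa2. Without luciferase RG 1 the count was 3, and without luciferase RG 2 it was 5.

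Gprc5a, an orphan receptor induced by retinoic acid, was 7.15 and 6.92 in luciferase RG and 11.01, 11.37 and 11.30 in BRAF R. The groups were tight and far apart. The difference of 4.19 ± 0.27 had the smallest adjusted p of all genes (0.00133). Sprr1a, a precursor of the cornified envelope that marks cells after injury, was 7.02 and 7.51 against 11.72, 12.22 and 10.64. All BRAF R arrays were higher, with a rise of 4.26 ± 0.45, a 19.2-fold change in intensity (adjusted p 0.00732).

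S100a6, a calcium-binding protein, was 9.09 and 9.66 in luciferase RG and 12.71, 13.24 and 12.76 in BRAF R. It rose by 3.53 ± 0.31 (adjusted p 0.00408) and remained called in all 5 fits that leave out 1 array. S100a6 also differed between the lines where the transgene was low: its mean was 7.38 ± 0.04 in luciferase G and 10.74 ± 0.16 in BRAF G. The difference of 3.37 in the G gate was about as large as that between the red groups.

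Anxa10, an annexin best known from the stomach, was 6.64 and 6.08 in luciferase RG, below the array median on both, and 10.39, 11.72 and 9.44 in BRAF R. It was bright on every BRAF R array but varied there over more than 2 log2 units, and was at least 12.3-fold higher (adjusted p 0.019; 0.0903 without luciferase RG 2). Lgals3, the sugar-binding galectin-3, was 7.47 and 8.94 in luciferase RG and 11.34, 12.17 and 11.51 in BRAF R. Its control arrays were apart and its BRAF R arrays all higher, by 3.47 ± 0.45 (adjusted p 0.0164; 0.0611 without luciferase RG 1). Anxa2, a membrane-binding annexin, was already bright in luciferase RG at 11.97 and 12.03 and was 13.60 on BRAF R 1 and 3 and higher still on BRAF R 2. Its rise of 1.73 ± 0.27 (adjusted p 0.0337) was not called when any 1 array was left out (adjusted p 0.0625 to 0.153).

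Of 11 tested annexins 3 rose, with a median of 1.00, and of 9 tested S100a genes 3 rose, with a median of 1.05 (against 0.522% called higher of all genes). The called annexins and S100a genes are all among the 9 called members of the regeneration list, so they are not a further result. Of 6 simple epithelial keratins 1 rose, and all 6 lay above both control arrays (100%, against 15.6% of all genes), with a median of 0.87. Krt23 was 8.34 and 8.83 in luciferase RG and 10.65, 11.25 and 10.29 in BRAF R. The groups were well apart, and its rise of 2.15 ± 0.35 (adjusted p 0.0371) was not called when any 1 array was left out. Krt7, found in ducts and in repairing epithelium, had a difference of 1.39 ± 0.34 (adjusted p 0.12) and Krt20, a marker of differentiated villus cells, of 0.63 ± 0.27 (adjusted p 0.33). Claudins and tight junction genes had a median of 0.60 over 13 tested, with 0 called. Of the 13, 7 lay above both control arrays (53.8%, against 15.6% of all genes) and 1 below (7.69%, against 15.5%).

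Of 7 tested genes of Brunner glands and stomach, whose cells border the duodenal crypts, Anxa10 alone rose. Of these genes, 3 lay above both controls (42.9%, against 15.6% of all genes) and 1 below (14.3%, against 15.5%). Their summed linear intensity over 13 probed genes was 1637 to 1674 in luciferase RG and 2510 to 6076 in BRAF R. Anxa10, which is on the repair list too, is 1 of the 13. Tff1, a trefoil peptide of gastric pit cells, was 6.52 and 6.54 on the control arrays, below the median, and 9.69, 9.58 and 7.85 in BRAF R, at least 4.42-fold higher (adjusted p 0.084). Tff2, of Brunner glands and mucous neck cells, overlapped between the groups (-0.02 ± 0.28), Pdx1 differed by 0.19 ± 0.26, and 4 of the 13 genes were above the array median on none of the 5 arrays. Their part in the repair result was not tested.

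Several of the largest rises lay outside these lists. Clca4a, a member of the calcium-activated chloride channel regulator family, was 6.02 and 6.23 in luciferase RG, below the array median, and 11.33, 11.97 and 10.36 in BRAF R. It was at least 20.0-fold higher (adjusted p 0.00408). Within the BRAF line it varied widely between mice in other gates, with 8.72 ± 1.95 in BRAF G and 9.43 ± 1.95 in RG, and with all 16 arrays weighted it was not called (adjusted p 0.202). Probes of this family can share sequence, so signal from related Clca genes cannot be told apart.

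Mboat1, an acyltransferase that remodels membrane phospholipids, was 6.64 and 6.55 in luciferase RG, below the median, and 10.72, 11.65 and 10.77 in BRAF R. It was at least 17.7-fold higher (adjusted p 0.00279). Mboat1, like S100a6, was higher in BRAF G (8.83 ± 0.58) than in luciferase G (6.57 ± 0.08). Ada, adenosine deaminase, was 6.97 and 6.71 against 11.93, 9.98 and 9.67, at least 12.1-fold higher (adjusted p 0.0371). The call was lost without BRAF R 2, and also without either luciferase RG array, where only 1 control array remains. The log2 difference was 2.99 to 4.12 with 1 array left out. Ada too had a higher mean in BRAF G (8.98) than in luciferase G (7.62).

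Cd86, a costimulatory ligand best known from antigen-presenting cells, was 6.95 and 6.83 in luciferase RG and 11.25, 11.16 and 9.75 in BRAF R, at least 13.9-fold higher (adjusted p 0.0104; 0.0607 without luciferase RG 1). Of 8 tested myeloid and B cell markers, Cd86 alone rose, 4 (50%, against 15.6% of all genes) lay above both controls and 0 below, and the median was 0.67. Ptprc, Cd3d, Cd3e and Cd3g were above the array median on 0 of the 5 arrays, and Tyrobp on 1 of 3 BRAF R arrays. The summed intensity of 20 probed T cell and NK cell markers was 2140 to 2213 in luciferase RG and 2151 to 2412 in BRAF R, against 17954 to 27366 in BRAF NEG. That of 17 probed myeloid and B cell markers was 4149 to 5102 in luciferase RG and 4783 to 7226 in BRAF R, with Laptm5, a lysosomal protein of leukocytes, at 9.55 on BRAF R 2 and at most 7.46 on the other 4 arrays. Cd86 is itself in this sum. The part of blood cells in the Cd86 result was not tested.

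The 12 genes called in all 5 fits that leave out 1 array were Clca4a, Mboat1, Sprr1a, Pyy, Gprc5a, S100a6, Emp1, Dusp6, Phlda2, Ddah1, Tnfrsf12a and Cxcl16, the last 4 named after their values were seen. Tnfrsf12a, the receptor of the cytokine TWEAK, was 7.06 and 6.95 in luciferase RG and 9.77, 10.18 and 9.94 in BRAF R (2.96 ± 0.27, adjusted p 0.00435). Its groups were narrow and did not overlap. Cxcl16, a membrane-bound chemokine, had means of 6.89 and 9.67 and was at least 5.89-fold higher (adjusted p 0.0104). Ddah1, which degrades methylarginines, had means of 6.76 and 9.81 and was at least 7.55-fold higher, and Phlda2, an imprinted gene, rose by 3.29 ± 0.34 (both adjusted p 0.00675). Tnfrsf12a, Cxcl16, Ddah1 and Phlda2 also had higher means in BRAF G (7.97, 7.12, 9.07 and 8.58) than in luciferase G (6.91, 6.51, 7.45 and 7.41). Both luciferase G arrays of Cxcl16 were under the array median, and these differences between G groups were not tested.

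Atoh1 and Gfi1, 2 factors of secretory fate, were among the 11 lower genes. Atoh1, the factor that commits crypt cells to secretory fates, was 8.84 and 9.02 in luciferase RG and 6.74, 7.38 and 6.97 in BRAF R. It was near the array median on all BRAF R arrays and clearly above it on both control arrays. It fell, with a difference of -1.90 ± 0.29 (adjusted p 0.0307), a call that was lost when any 1 array was left out (adjusted p 0.0514 to 0.118). Gfi1, a repressor downstream of Atoh1 in goblet and Paneth precursors, was 9.11 and 9.22 against 7.44, 7.38 and 7.23. Both groups were tight, and the fall was -1.81 ± 0.26 (adjusted p 0.0215; 0.108 without luciferase RG 2).

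Luciferase RG had the highest mean of both factors. The other group means of Atoh1 were 7.07 in luciferase G, 6.98 in BRAF G, 7.16 in BRAF RG and 7.60 in BRAF NEG, with 7.03 in BRAF R. Those of Gfi1 were 7.30, 7.45, 7.07 and 8.52 in the same order. Of 17 tested genes of Notch and secretory fate, 2 fell (against 0.115% of all genes) and 0 rose, and the median was -0.30. Of the 17, 10 lay below both control arrays (58.8%, against 15.5% of all genes) and 1 above. With the replicate number as a block 0 of the list were called. Mfng, a glycosyltransferase that modifies Notch, had means of 7.81 and 6.30, at least 1.88-fold lower in BRAF R without passing (adjusted p 0.0546), while the Notch target Hes1 had a difference of 0.21 ± 0.32.

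Goblet cell products stayed high in both groups. Zg16, a lectin of goblet cell granules, was 13.58 and 13.65 in luciferase RG and 13.10, 12.98 and 13.42 in BRAF R. All BRAF R arrays were slightly lower, yet far above luciferase G (10.49 ± 0.09) and BRAF G (11.14 ± 0.48). The difference of -0.45 ± 0.27 did not pass (adjusted p 0.518). Of 20 tested goblet cell genes 0 passed, 17 lay below both control arrays (85%, against 15.5% of all genes) and 0 above, and the median was -0.54. With all 16 arrays 7 of the 20 fell, beside 544 of all 9575 genes. When arrays were also weighted 1 of the 20 fell, beside 62 of all 9575 genes. Tff3, the intestinal trefoil peptide, had a difference of -0.28 ± 0.27, Bcas1 of -0.48 ± 0.33 and Spdef, the goblet factor, of -0.45 ± 0.29. The member with the largest difference was Rep15, a Rab15 effector, which was 12.31 and 12.37 against 10.64, 9.49 and 10.55 (-2.11 ± 0.38, adjusted p 0.0561). In bulk samples, fewer cells of a type and less RNA per cell cannot be told apart.

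**Figure D4:**
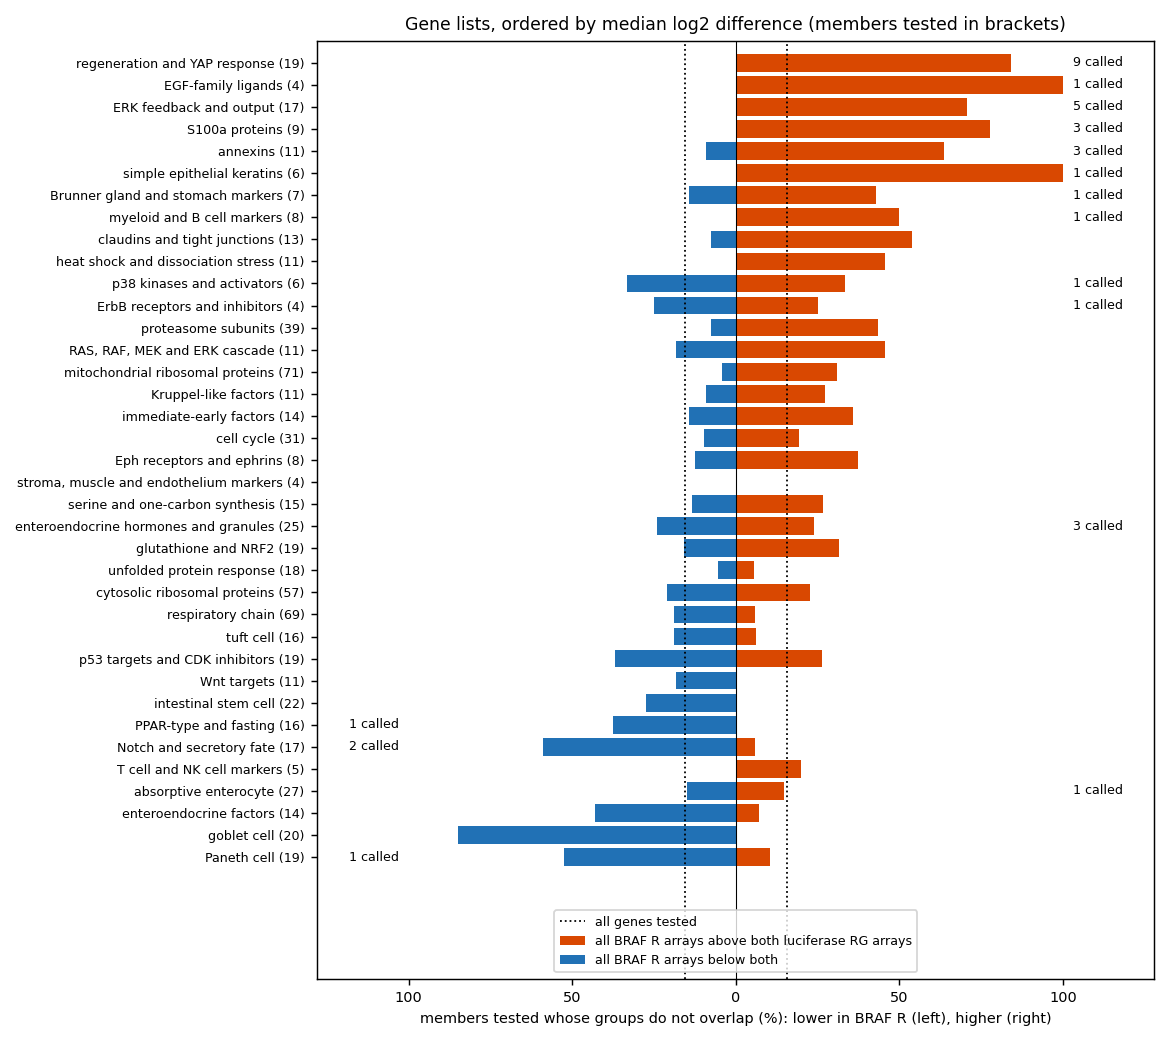
Share of each list's tested genes whose 3 BRAF R arrays all lie above (right) or all lie below (left) both luciferase RG arrays, in percent, with dotted lines at the shares of all genes (15.6% and 15.5%). Lists are ordered by median log2 difference, and counts of called genes are at the sides. The regeneration list holds 9 called genes, and 17 of 20 goblet cell genes lie on the left with 0 called.

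Among enteroendocrine genes 3 rose. Pyy, the peptide YY hormone of distal gut endocrine cells, was 7.04 and 6.14 in luciferase RG and 11.74, 10.48 and 10.27 in BRAF R. It was dim or nearly so in luciferase RG, and in BRAF RG and NEG its means were 8.20 and 8.36. It was at least 14.5-fold higher in BRAF R (adjusted p 0.00976). Iapp (amylin) was 7.46 and 7.25 against 11.20, 9.42 and 10.07 (2.87 ± 0.47, adjusted p 0.0397; 0.127 without luciferase RG 1). Scg2, a granule protein, was 7.16 and 7.22 against 11.96, 9.87 and 9.92 (3.40 ± 0.58, adjusted p 0.0462; 0.165 without luciferase RG 1). In all 3 genes the highest value was that of BRAF R 1.

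General endocrine markers did not share this rise. Chga, the granule protein chromogranin A, was 12.15 and 12.20 in luciferase RG and 11.96, 10.66 and 10.60 in BRAF R. It was lower on all BRAF R arrays but did not pass (-1.10 ± 0.42, adjusted p 0.287). Tph1, the enzyme of serotonin synthesis, was 10.71 and 10.67 against 11.91, 10.24 and 10.84 (0.31 ± 0.45), and its groups overlapped. Tac1, the substance P precursor (0.63 ± 0.44), and Sct, secretin (0.49 ± 0.39), did not pass either. BRAF R 1 was the highest BRAF R array for Chga, Tph1, Tac1 and Sct. Over 25 tested hormone and granule genes 3 rose (against 0.522% of all genes) and 0 fell, and the median was 0.06. Of the 25, 6 lay above and 6 below both controls (24% each, against 15.6% and 15.5% of all genes). Over 14 factors of endocrine fate 0 passed, and the median was -0.51. Of the 14, 1 lay above both controls (7.14%, against 15.6% of all genes) and 6 below (42.9%, against 15.5%). Neurod1, which acts in endocrine precursors, had a difference of -0.38 ± 0.37.

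Among Paneth cell genes, Reg3a was 9.86 and 10.11 in luciferase RG and 8.46, 7.47 and 7.89 in BRAF R. This member of the Reg family of secreted lectins fell, with a difference of -2.05 ± 0.34 (adjusted p 0.0405; 0.137 without luciferase RG 2), and related Reg3 genes may share its signal. It was the 1 called gene of 19, of which 10 lay below (52.6%, against 15.5% of all genes) and 2 above both controls, with a median of -0.59. Lyz1, the Paneth lysozyme, was 13.72 on both control arrays and 13.24, 13.28 and 13.08 in BRAF R (-0.52 ± 0.26, adjusted p 0.402). Defensin genes of the Defa family are near copies, and signals of single members are uncertain.

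The remaining lower genes were of mixed kinds. Pdk4, the kinase that closes the pyruvate dehydrogenase complex in fasting, was 9.04 and 9.28 in luciferase RG and 7.29, 6.85 and 7.46 in BRAF R. The groups were well apart, with a fall of -1.96 ± 0.29 (adjusted p 0.0298; 0.0616 to 0.116 when 1 array was left out). Luciferase RG did not have the highest mean of Pdk4, which was that of luciferase G (9.49 ± 0.25). Of 16 tested genes of fatty acid oxidation and fasting Pdk4 was the 1 called (against 0.115% of all genes called lower), with a median of -0.26. Of the 16, 6 lay below both control arrays (37.5%, against 15.5% of all genes) and 0 above (against 15.6%).

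H2-Bl, a class I histocompatibility gene, was 9.90 and 11.37 against 7.99, 7.83 and 8.39. All BRAF R arrays were lower, with a difference of -2.57 ± 0.43 (adjusted p 0.043; 0.152 without BRAF R 2). Class I genes are similar and differ between strains, and the background was mixed, so probe binding and level cannot be told apart here. Hdc, which makes histamine, was 10.08 and 8.81 against 6.71, 6.68 and 7.47 and fell, with a difference of -2.49 ± 0.42 (adjusted p 0.0446; 0.181 without luciferase RG 1). Its control arrays were themselves apart. Myrip, a motor adaptor of secretory granules, was 10.01 and 9.15 against 6.90, 6.94 and 7.70 (-2.40 ± 0.37, adjusted p 0.0318; 0.153 without luciferase RG 1). Rnase1, a secreted ribonuclease, was 11.25 and 11.66 against 9.89, 9.27 and 8.76 (-2.15 ± 0.37, adjusted p 0.0446; 0.152 without BRAF R 2). In these genes too the BRAF R arrays were all lower.

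Klhl24, an adaptor of a ubiquitin ligase, was 8.63 and 9.17 against 6.82, 7.16 and 7.05 (-1.89 ± 0.29, adjusted p 0.0307). Aatk, a kinase first found in dying myeloid cells, had means of 7.94 in luciferase RG and 6.19 in BRAF R, where all 3 arrays were under the median, and was at least 2.07-fold lower (adjusted p 0.0298). Il18r1, a chain of the interleukin 18 receptor, had means of 8.63 and 6.88, a level at least 3.13-fold lower in BRAF R (adjusted p 0.0349). None of these last 3 was called when any 1 array was left out.

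Other cell classes and cell functions held few or no called genes. Of 27 tested enterocyte genes Clca4a alone was called. Of the 27, 4 lay above and 4 below both controls (14.8% each, close to the 15.6% and 15.5% of all genes). Apoa1, a lipoprotein of absorptive cells, had a difference of -0.56 ± 0.39. Of 16 tuft cell genes 0 passed. Dclk1, a tuft cell kinase, had means of 7.49 in luciferase RG and 6.57 in BRAF R, where all 3 arrays were under the median. It was at least 1.5-fold lower in BRAF R without passing (adjusted p 0.168). Of 31 cell cycle genes 0 passed (median 0.18), and Mcm4, a replication helicase subunit, overlapped between the groups (0.19 ± 0.30). Of 19 p53 targets and CDK inhibitors 0 passed. Cdkn1a, the CDK inhibitor p21, was 10.13 on luciferase RG 1, slightly lower on luciferase RG 2, and 10.50, 10.51 and 10.47 in BRAF R (0.43 ± 0.25, adjusted p 0.5), high in both groups beside a mean of 7.74 in luciferase G. Cdkn2b, the inhibitor p15, had a difference of 0.56 ± 0.35 (adjusted p 0.533). Of 11 Wnt targets 0 passed, and the feedback gene Axin2 was 8.76 and 9.67 against 8.70, 7.70 and 8.32 (-0.98 ± 0.39, adjusted p 0.303).

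Housekeeping lists held 0 called genes. Subunits of the proteasome had a median of 0.34 over 39 tested, with 17 above both controls (43.6%) and 3 below (7.69%). Mitochondrial ribosomal proteins had a median of 0.22 over 71 tested, with 22 above (31%) and 3 below (4.23%). Of all genes, 15.6% lay above and 15.5% below. Cytosolic ribosomal proteins had a median of -0.06 (57 tested) and respiratory chain subunits of -0.11 (69 tested). Genes of glutathione and NRF2, serine synthesis, the unfolded protein response, Kruppel-like factors and Eph receptors had medians from -0.05 to 0.22 and 0 calls. Stromal, muscle and endothelial markers had a summed intensity of 2956 to 3369 in luciferase RG and 3107 to 3644 in BRAF R, with Col1a1, the main collagen chain, above the array median on 0 of the 5 arrays.

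The 2 lines could also be compared where the transgene was low. For each gene the difference between BRAF G and luciferase G was set beside that between the red groups, and the difference of both differences was tested in a fit of all 16 arrays. It passed for 69 of the 9575 genes (0.721%), 45 with a larger value in the red groups (0.470%) and 24 with a smaller one (0.251%), including 20 of the 61 called genes, which were selected on a term of this difference. Fitted with mouse as a block, since the labels tie G, RG and R arrays to the same mouse, it passed for 247 genes, all 69 included. Without luciferase mouse 1 it passed for 5 genes, without luciferase mouse 2 for 31, without BRAF mouse 2 for 27 and without BRAF mouse 3 for 12.

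Lgals3 had means of 8.50 in luciferase G and 8.29 in BRAF G, against 8.21 in luciferase RG and 11.68 in BRAF R, all above the array median. Its log2 difference between the lines was -0.21 in G and 3.47 in the red groups, a difference of differences of 3.68 ± 0.66 (adjusted p 0.026). Atoh1 differed by -0.09 and -1.90 and Gfi1 by 0.15 and -1.81, with differences of differences of -1.80 ± 0.27 and -1.96 ± 0.26 (both adjusted p 0.0146). The means of Atoh1 in luciferase G, BRAF G and BRAF R (7.07, 6.98 and 7.03) were close to the array median. Mapk11, Pyy and Anxa10 passed too, but were dim in luciferase G (6.62, 6.42 and 6.37, above the median on 0 arrays). In luciferase RG, Mapk11 and Anxa10 were dim and Pyy was above the median on 1 of 2 arrays. The means of Mapk11, Pyy and Anxa10 in BRAF G were 7.07, 6.71 and 6.93, above the median on 1, 1 and 2 of 3 arrays. No level difference in G is read from them.

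S100a6 differed by 3.37 in G and by 3.53 in the red groups, and its difference of differences was 0.16 ± 0.33 (adjusted p 0.899). Its BRAF G arrays (10.75, 10.90 and 10.58) were all above its luciferase G arrays (7.35 and 7.40), a difference between G groups that was not tested here. Pdk4 had means of 9.49 in luciferase G and 6.76 in BRAF G, under the array median on all 3 arrays of the latter. H2-Bl differed by -2.08 and -2.57 (-0.49 ± 0.88, adjusted p 0.883), with luciferase G arrays far apart at 8.07 and 10.16.

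Dusp6 differed by 1.24 in G and 2.72 in the red groups (1.48 ± 0.49, adjusted p 0.188; 0.0444 with mouse as a block). Emp1 differed by 0.90 and 3.27 (2.37 ± 0.77, adjusted p 0.18; 0.0115 with the block). In G its arrays were 8.79 and 8.56 in the luciferase line and 8.84, 10.68 and 9.22 in the BRAF line, so BRAF G 1 lay next to the controls. Gprc5a was under the median on both luciferase G arrays (6.43 and 6.59) and 7.18, 8.83 and 7.48 in BRAF G. Its difference of differences passed with the block (adjusted p 0.0112) and not without it (adjusted p 0.117).

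BRAF RG cells, whose green label is the same as that of luciferase RG, had a higher mean than luciferase RG for 50 of the 50 higher genes and a lower one for 11 of the 11 lower genes. This shares the luciferase RG arrays on which the genes were called and is no separate evidence.

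**Figure D5:**
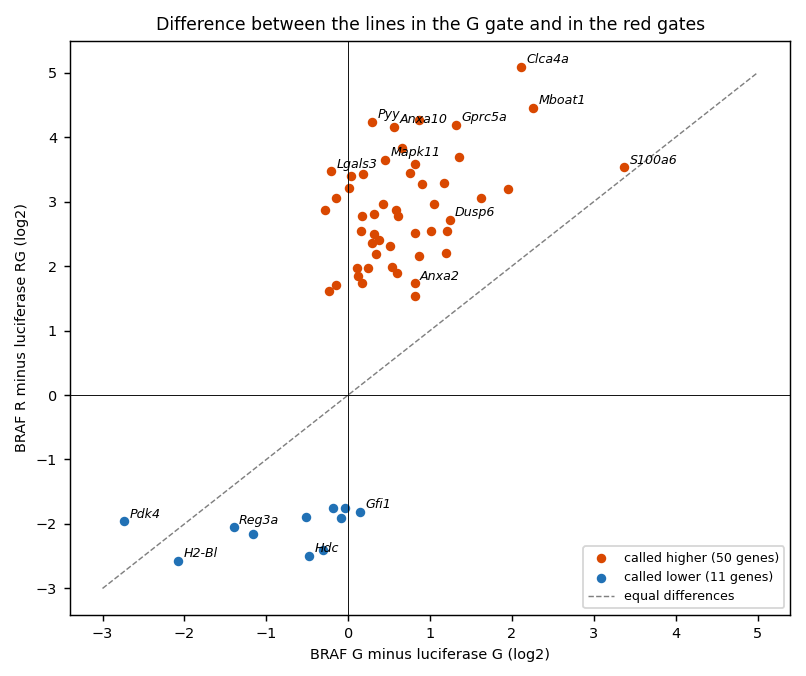
Log2 difference between the BRAF and luciferase lines in the G gate (x) and between BRAF R and luciferase RG (y) for the 61 called genes, with a dashed line where both are equal. S100a6 lies next to the dashed line, at 3.37 and 3.53, and Lgals3 far above it, at -0.21 and 3.47. Genes under the array median in a group are drawn at their fitted values.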

How the data were processed

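RNA of sorted crypt cell fractions was labelled with a NuGen kit and hybridised to Illumina bead arrays, per the labels' protocols. The deposited values are intensities on a linear scale, 55.7 to 40121.2, that the authors made with GenomeStudio, per the submitters' processing notes (its version is not given in those notes). The sorted values of the 16 arrays agree within 1.2, so the arrays share a distribution. Another 32 columns of signals and detection p-values carry names matched to no sample and were not used.

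Of 25697 probes, 23978 had 1 gene symbol. Log2 intensities of named probes above the array median on at least 2 of the 5 arrays were kept (13305), and the probe of highest mean was taken per gene (9575). Groups were compared with limma 3.58.1 (R 4.3.3; lmFit, eBayes) on the 5 arrays, and the difference of differences on 16 arrays, with Benjamini-Hochberg adjustment over all genes and a threshold of 0.05. The comparison is unpaired, of separate mice. The script was tested on simulated data.

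The genes, lists and tests were chosen with earlier results of these data known. Named genes were the 12 highest and 12 lowest among called genes whose groups do not overlap, up to 4 called genes per list, and these names whatever their values: Lgr5, Olfm4, Ascl2, Cdkn1a, Cdkn2b, Dusp6, Dusp4, Spry4, Fosl1, Plaur, Hbegf, S100a6, Anxa10, Anxa2, Krt7, Zg16, Muc2, Atoh1, Tff3, Bcas1, Chga, Tph1, Tac1, Sct, Neurod1, Dclk1, Krt20, Apoa1 and Mcm4, and 1 more that is not reported here. The table held 0 probes for Muc2, and Ascl2 differed by -0.20 ± 0.28 (adjusted p 0.829). Alternatives were other probe filters and probe rules, a subtracted background, 16 arrays, weights, blocks and 1 array left out.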

Additional observations from a re-analysis of the deposited data

Results flagged for a closer look

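The difference between the BRAF and luciferase lines was not the same in the red groups as in the G groups for 69 genes, by the test of the difference of differences in limma over all 16 arrays. Among the genes called between BRAF R and luciferase RG and named by the rule, the difference of differences was positive for Pyy (3.95, adjusted p 0.0291), Lgals3 (3.68, adjusted p 0.026), Anxa10 (3.60, adjusted p 0.041), Scg2 (3.36, adjusted p 0.0388), Mapk11 (3.20, adjusted p 0.0165) and Anxa5 (1.80, adjusted p 0.0433). It was negative for Gfi1 (-1.96, adjusted p 0.0146), Atoh1 (-1.80, adjusted p 0.0146) and Aatk (-1.71, adjusted p 0.0165). These genes were chosen for a large difference between the red groups, a term of this test, so its sign was favoured. Anxa10 and Mapk11 are dim in both luciferase groups. Pyy is dim in luciferase G and above the array median on 1 of 2 luciferase RG arrays. Scg2 is dim in part of the G arrays and Aatk in all of its groups here but luciferase RG. The values of Pyy, Anxa10, Mapk11, Scg2 and Aatk are therefore fitted values and not differences between measured levels. The red groups differ in green gate between the lines and the G groups do not, so transgene and gate cannot be told apart in this difference either.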

How the results depend on the processing

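The main limits are the 2 control arrays and the unequal spread of the groups, and signals under the array median give only bounds. Against 61 genes called, 1200 were called with all 16 arrays (54.7% of them higher, against 82%), 1245 with mouse as a random block, 180 with 16 weighted arrays (65.6% higher), 127 with a trended and robust prior, 123 with weights within the 5 arrays, 31 with probes above the median on all 5 arrays and 3 with no filter. Leaving out 1 array gave 16 to 56. The difference of differences passed for 69 genes, for 247 with the mouse as replicate block, for 33 with weights, 40 with no filter, 45 with the lowest value subtracted and 5 to 67 with 1 mouse left out. The cause was not tested, except that fewer samples or more genes enter some fits.

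Numbers shared between lines mark separate mice. Deviations of same-numbered BRAF R and luciferase RG arrays correlated at -0.0504 and -0.039. With 2 luciferase RG arrays these deviations mirror each other, so the other pairings gave 0.0504 and 0.039. These values therefore cannot tell same-numbered from other pairs. The replicate block by number gave 58 genes, 37 of the 61 among them. The sign turned for S100a6's difference of differences (0.16; -0.11 with the lowest value subtracted, -0.10 to 0.42 with 1 luciferase mouse left out), for Lgr5 (-0.17; 0.02 in the replicate block, -0.38 to 0.02 with 1 array left out) and for Tph1 (0.31; -0.15 to 0.69), none of which was called. The named genes' log2 differences kept direction and side of the threshold in 711 cases, lost the call in 165, gained it in 14 and reversed in 3.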
